A study of Mus musculus with 24 samples.

Results

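The early transcriptional response to fear conditioning was examined in the hippocampus of WT mice, by comparing the 3 WT libraries prepared 15 min after training with the 3 libraries of naive WT mice. These 6 libraries were chosen by their labels and are part of a series of 24, made of 8 groups of 3 biological replicates. All mice were on the C57BL/6J background, 8 to 12 weeks old and, per the study's methods, male. The naive WT group received no conditioning. The 15 min WT group was placed in a conditioning chamber, heard a tone and received foot shocks before the hippocampus was taken. The labels give neither group a transgene or a drug. Mice exposed to the chamber or tone without shock were not part of the series, so handling, novelty, tone and shock cannot be told apart here. WT mice at 1 h and 3 h, and mice labelled Tob-KO that were naive or at 15 min, are also described below, and all 24 libraries entered the estimate of the spread; Tob-KO mice lack the antiproliferative gene Tob constitutively, per the study's methods.

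When neurons are strongly activated, calcium and kinase signals reach the nucleus and switch on immediate early genes, whose transcription needs no new protein synthesis. Many of them encode transcription factors, such as the Fos, Jun, Egr and Nr4a families and Npas4, which in turn control later genes, while others, such as Arc, act directly at synapses. Factors of the CREB family bind the cAMP response element (CRE), and serum response factor binds the CArG box, and both kinds of element are well known in promoters of immediate early genes. Glial and endothelial cells also express immediate early genes after stimulation.

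RNA sequencing gave 28985355 to 35233118 counts per library over the 6 libraries, of which 3.39 to 4.31% were mitochondrial. Of 47593 genes in the table, 18349 reached 0.2 CPM (counts relative to library size) in 2 of these libraries and were tested. Neuronal markers were high in all 6 libraries. Snap25, a synaptic vesicle fusion protein, was between 1870 and 2000 CPM, and Prox1 and Wfs1, which mark dentate granule cells and CA1 pyramidal cells, were between 82.6 and 127 CPM and between 145 and 188 CPM. Markers of choroid plexus, a tissue that borders the hippocampus, divided the naive libraries. The summed level of the 16 markers was 2540, 735 and 52.9 CPM in naive libraries 1, 2 and 3, and 32.2, 51.9 and 50.3 CPM at 15 min. Naive libraries 1 and 2 thus stood apart from the other 4, and the lead results are also given without them.

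At 15 min after conditioning, 9 genes rose in WT hippocampus and none was called lower. The test was the quasi-likelihood test of edgeR at a Benjamini-Hochberg false discovery rate (FDR) of 0.05, and every adjusted p below comes from it. The 9 genes are 0.0490% of the 18349 tested. They were the transcription factors Egr2, Fos, Npas4 and Junb, the nuclear early response gene Ier2 and the matricellular signalling protein Cyr61. The others were the antiproliferative gene Btg2 and the receptors S1pr1 and Flt1. Of the 9 genes, 6 (0.0327% of the genes tested) also had a fold change of at least 2, namely Egr2, Cyr61, Fos, Npas4, Ier2 and Btg2. For the 0 genes called lower, edgeR gave 816 genes (4.45%) that were lower at an unadjusted p under 0.05, beside 809 (4.41%) that were higher, and DESeq2 called 3 genes lower.

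The number of genes called differed between analyses. Fitted on the 6 libraries alone, the same edgeR test called 0 genes, with 1119 at an unadjusted p under 0.05, while edgeR's exact test, the study's own test for differential expression, called 46 (20 higher and 26 lower, of which 9 were choroid plexus markers) and DESeq2 over 24 libraries called 40. Without naive libraries 1 and 2, without naive library 2 alone or without naive library 3 alone only Btg2 was called, and without 15 min library 1 there were 5 calls, Btg2, S1pr1, Flt1, Cldn5 and Sash1. Without 15 min library 3 there were 14 calls. With the choroid plexus score, the mean log2 level of its markers, as a covariate, 12 genes were called. They included 7 of the 9, without Fos and Junb, and also Gadd45g and Zfp36l1. All 9 genes were higher at 15 min in each of 18 alternative analyses. These analyses reuse the libraries in which the 9 genes were called and their groups did not overlap. The shared direction is therefore no further support.

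**Figure D1:**
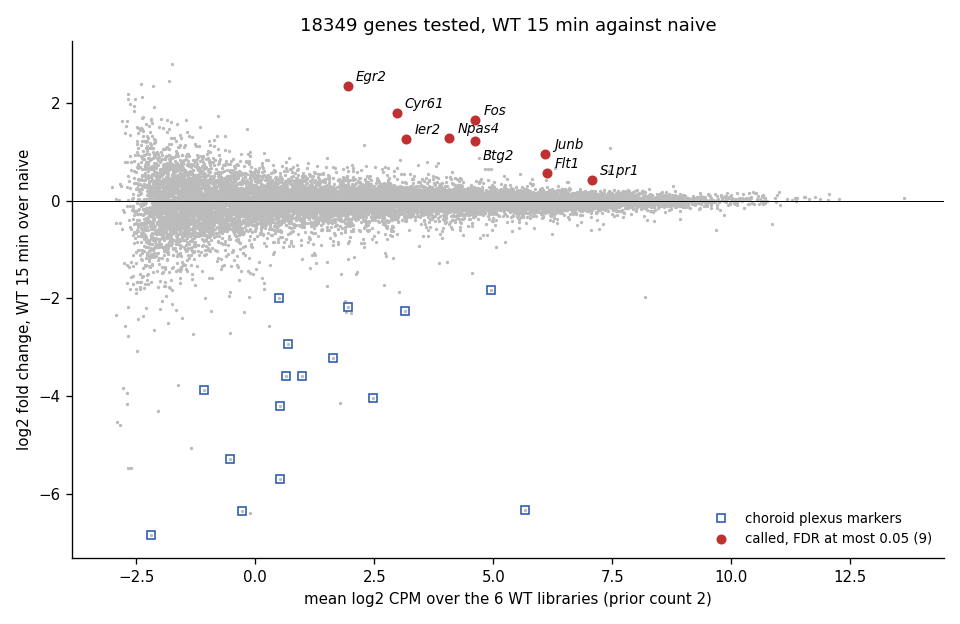
Log2 fold change of WT 15 min over naive (vertical axis) against the mean log2 CPM of the 6 WT libraries (horizontal axis) for each of the 18349 genes tested. The 9 called genes (red) all lie above 0, between 0.42 for S1pr1 and 2.35 for Egr2, and the 16 choroid plexus markers (blue squares) lie between -1.84 and -6.84 without passing the test.

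To show what the promoters of these genes hold, RefSeq promoters were searched from 250 bases before to 50 bases after each transcription start, on both strands. Of the 9 called genes, 7 had a promoter sequence in the RefSeq table of GRCm38.p6, with Cyr61 under its other symbol Ccn1. The motifs were the CRE palindrome TGACGTCA, its shorter core TGACG, which every CRE palindrome also contains, and the CArG box. The palindrome is in 1.79% of the 32851 promoters of the table, the core in 20.8% and the CArG box in 1.63%. The windows below carry the CRE palindrome (Btg2 and Flt1), the core (Fos and Npas4) or the CArG box (Egr2). Each is written 5′ to 3′ in the direction of the gene, with 1 match in capitals. The Npas4 window also holds a core on the opposite strand, from -179 to -175, which is left in lowercase. The windows are shown because they cover a growth arrest gene, an endothelial gene and 3 neuronal transcription factors that rose together.
Btg2, chr1:134079303-134079332, minus strand: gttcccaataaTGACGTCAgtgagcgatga
Flt1, chr5:147726074-147726103, minus strand: gggggacccctTGACGTCActggaaggagg
Fos, chr12:85473812-85473841, plus strand: agttccgcccagTGACGtaggaagtccatc
Npas4, chr19:4990123-4990152, minus strand: gacgtcacgggaTGACGtcggaagtctggg
Egr2, chr10:67537787-67537816, plus strand: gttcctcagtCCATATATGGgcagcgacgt

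The palindrome lies from -166 to -159 relative to the start of Btg2 and from -81 to -74 relative to that of Flt1. The core was found in at least 1 promoter of each of the 7 genes. In Egr2, which has 5 listed starts, the core was in 3 of the promoters and the CArG box in 4. The 3 promoters with a core overlap and share the same cores and the same CArG box, so they are not separate matches. These are matches of letters, chosen for display after the 9 genes were known, and base composition was not matched to other promoters.

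Btg2, a member of the same BTG/TOB family as the gene deleted in the Tob-KO mice and a classical early response gene, gave the smallest p-value. It stood at 19.9, 13.9 and 14.5 CPM in naive libraries 1 to 3 and at 43.8, 37.3 and 31.5 CPM in the 15 min libraries 1 to 3. Every 15 min library was above every naive library, and the lowest of them was still well above the highest naive value. The fitted fold change was 2.33 (log2 1.22, SE 0.14, adjusted p = 0.000449). Btg2 was called in 17 of the 18 alternatives and in all 6 analyses that left out 1 library. The gene spans chr1:134075170-134079120 on the minus strand of GRCm38 and overlaps no other annotated gene.

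Among the AP-1 factors, which bind DNA as pairs of Fos and Jun proteins, Fos and Junb rose and the other 4 tested members did not pass. Fos and Junb were each called in only 2 of the 6 analyses that left out 1 library, and neither with the choroid plexus score as a covariate. Fos, the standard marker of recently active neurons, was at 14.3, 14.9 and 13.0 CPM in naive mice and at 64.5, 34.6 and 34.6 CPM at 15 min. The naive values lay close together, the 15 min libraries were all higher, and library 1 was far above the other two. Fos had a fold change of 3.17 (log2 1.66, SE 0.28, adjusted p = 0.0207). Junb, a Jun protein that often restrains c-Jun, was at 48.4, 52.6 and 47.6 CPM in naive mice and at 128, 76.1 and 84.9 CPM at 15 min, again without overlap and with library 1 highest (log2 0.96, SE 0.17, adjusted p = 0.0289). Junb (chr8:84974484-84978718) overlaps Prdx2 on the other strand, so its counts rest on the strand setting of the counting, which is not given in the sources used here.

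The remaining AP-1 members had smaller differences. Fosb, which shares Fos's early control and gives rise to the stable ΔFosB, was at 13.7, 8.34 and 11.8 CPM in naive mice and at 26.8, 14.8 and 16.0 CPM at 15 min (log2 0.77, adjusted p = 0.325). Jun, Fosl2 and Jund had log2 fold changes of 0.27, 0.22 and 0.19. The groups nearly touched for Fosl2, whose highest naive value was 69.2 CPM and lowest 15 min value 69.9 CPM. For Jund both of these values were 158 CPM after rounding. All 6 tested AP-1 genes were higher in every 15 min library than in every naive library, where 5.62% of all genes tested were so, and their median log2 fold change was 0.52, beside -0.003 over all genes tested. Fosl1 had only 12 counts over the 6 libraries and was not tested.

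Of the Egr zinc finger factors, Egr2 rose and Egr1, Egr3 and Egr4 did not pass. Egr2, which is best known for myelination and hindbrain patterning and is also induced in active neurons, was at 2.44, 1.78 and 1.13 CPM in naive mice and at 15.4, 6.72 and 5.41 CPM at 15 min. It was scarce in all naive libraries, 88, 55 and 34 counts, and had 529, 197 and 169 counts at 15 min. Its fold change of 5.1 was the largest of the 9 genes (log2 2.35, SE 0.38, adjusted p = 0.0186). The log2 fold change of Egr2 was 1.75 without 15 min library 1 (adjusted p = 0.0793) and 3.02 without naive libraries 1 and 2 (adjusted p = 0.261).

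Egr1, a widely used marker of synaptic plasticity, was at 175, 131 and 127 CPM in naive mice and at 337, 151 and 170 CPM at 15 min. Only 15 min library 1 was clearly above all naive libraries and the groups overlapped (log2 0.60, SE 0.24, adjusted p = 0.519). Egr4 was at 26.4, 23.1 and 25.1 CPM against 53.8, 31.3 and 32.5 CPM, without overlap (log2 0.66, adjusted p = 0.195). Egr3 was at 56.9, 58.3 and 59.1 CPM against 65.1, 44.5 and 51.6 CPM, with 1 library above and the other two below the naive range (log2 -0.11). Their corepressors Nab1 and Nab2 had log2 fold changes of -0.03 and 0.10, and the Egr and Nab list had a median of 0.35.

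None of the 3 Nr4a orphan nuclear receptors, which act early in memory formation, passed the test. Nr4a1 was at 63.4, 65.2 and 63.4 CPM in naive mice and at 150, 63.0 and 91.8 CPM at 15 min, so that 1 of the 15 min libraries lay below the naive values (log2 0.67, SE 0.24, adjusted p = 0.506). Nr4a2 and Nr4a3 had log2 fold changes of 0.25 and 0.20.

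Among 22 other early transcription regulators, Npas4 and Ier2 rose, none fell, and the list had a median of 0.13. Npas4, a neuron-specific factor switched on by calcium entry that shapes inhibitory synapses, was at 13.2, 10.1 and 9.42 CPM in naive mice and at 34.1, 22.9 and 22.4 CPM at 15 min. All 15 min libraries lay above all naive libraries (fold change 2.43, log2 1.28, SE 0.21, adjusted p = 0.0186). Ier2, a nuclear protein induced by growth factors, was at 6.77, 5.34 and 5.19 CPM and then at 16.1, 12.9 and 12.6 CPM, also without overlap (fold change 2.40, log2 1.26, SE 0.21, adjusted p = 0.0186). Klf2, a zinc finger factor prominent in endothelium, had nearly the same fold change but missed the threshold. It was at 6.22, 5.53 and 6.59 CPM in naive mice and at 18.4, 13.2 and 11.3 CPM at 15 min (log2 1.22, SE 0.26, adjusted p = 0.128). Srf, which encodes serum response factor itself, differed by 0.16 on the log2 scale (adjusted p = 0.449).

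**Figure D2:**
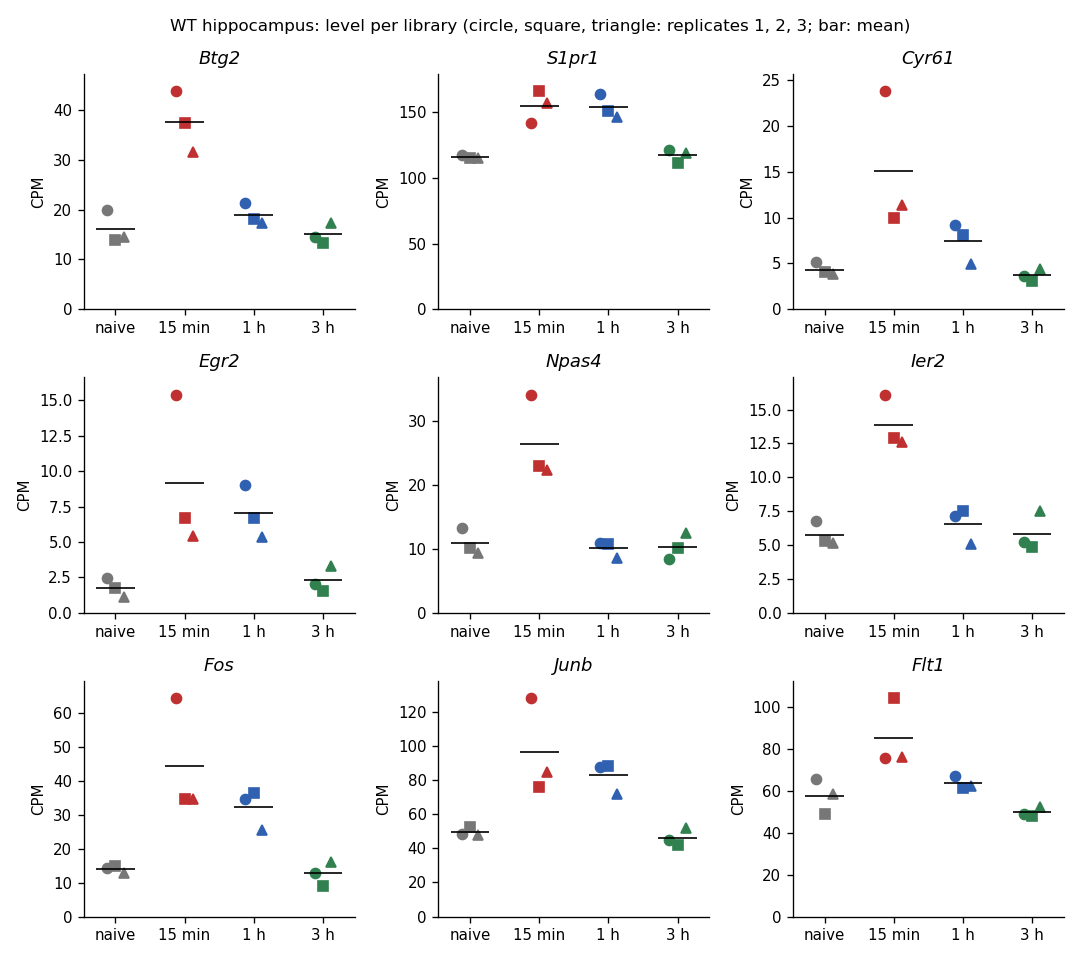
CPM (vertical axes, from 0) of the 9 called genes in each WT library at naive, 15 min, 1 h and 3 h; circles, squares and triangles are replicates 1, 2 and 3 and bars are means. In each panel the 3 libraries at 15 min lie above the 3 naive libraries, and Btg2 and Npas4 are lower again at 1 h, while S1pr1 averaged 155 CPM at 15 min and 154 CPM at 1 h.

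The growth arrest and mRNA decay genes, which slow proliferation or shorten the life of short-lived mRNAs, included Btg2 as their only call out of 11. Their median log2 fold change was nevertheless 0.42, and 7 of the 11 were higher in every 15 min library than in every naive library, as were 5.62% of all genes tested. Gadd45g, a stress-induced regulator of growth arrest, was at 11.5, 11.7 and 10.2 CPM in naive mice and at 16.4, 15.4 and 15.6 CPM at 15 min (log2 0.51, SE 0.11, adjusted p = 0.106). Zfp36l1, which binds AU-rich elements and promotes mRNA decay, was at 26.1, 22.3 and 23.1 CPM against 35.2, 43.6 and 33.2 CPM (log2 0.64, SE 0.14, adjusted p = 0.128), and its relative Zfp36 was at 2.94, 2.97 and 3.30 CPM against 4.80, 4.84 and 4.39 CPM (log2 0.61, adjusted p = 0.283). The groups did not overlap for any of these 3 genes, though none passed in the main fit. Gadd45g and Zfp36l1 passed with the choroid plexus score as a covariate.

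Tob1, the gene removed in the Tob-KO mice, was at 42.7, 37.7 and 34.0 CPM in naive WT mice and at 44.2, 43.8 and 42.8 CPM at 15 min. The 15 min values were higher without overlap, but by little (log2 0.19, SE 0.07, adjusted p = 0.506). Its relatives Tob2 and Btg1 each had a log2 fold change of 0.10, with overlapping groups.

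The ERK feedback regulators, phosphatases and Sprouty proteins that switch off kinase signalling, gave no call among 15 genes and a median of 0.06. Dusp1, the nuclear phosphatase of MAP kinases, came nearest with 25.2, 18.2 and 21.2 CPM in naive mice and 61.3, 35.2 and 35.1 CPM at 15 min. The groups did not overlap and library 1 was highest (log2 1.03, SE 0.22, adjusted p = 0.140). Dusp6, Dusp5 and Spry4 had log2 fold changes of 0.32, 0.30 and 0.29.

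None of 16 activity-induced neuronal effectors, many of which act directly at the synapse, passed the test, and their median was -0.02. Arc, which drives the internalization of AMPA receptors, was the exception in size. It was at 116, 134 and 120 CPM in naive mice and at 376, 171 and 230 CPM at 15 min. All 15 min libraries were higher, with library 1 well above the other two, and the difference did not pass (log2 1.07, SE 0.27, adjusted p = 0.219). For Sik1, a kinase that restrains CREB coactivators, the log2 fold change was 0.59 (adjusted p = 0.507). Homer1, Bdnf and Nptx2, which encode a scaffold, a neurotrophin and a synaptic pentraxin, had log2 fold changes of -0.11, -0.06 and -0.24. The 19 transmitter receptor and transporter genes ranged from -0.20 to 0.07 without a call.

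Cyr61, an integrin-binding matrix protein induced early in many cell types, rose from 5.11, 4.07 and 3.80 CPM in naive mice to 23.8, 9.99 and 11.4 CPM at 15 min. The groups did not overlap, and library 1 had about the sum of the other two (fold change 3.48, log2 1.80, SE 0.29, adjusted p = 0.0186). It was the only call among 12 tested matricellular and vascular early genes, whose median was 0.31. Apold1, an early response gene of endothelial cells, was at 3.22, 4.17 and 2.46 CPM against 8.22, 6.00 and 7.53 CPM, without overlap (log2 1.14, SE 0.34, adjusted p = 0.391). Ctgf, the matricellular relative of Cyr61, had a log2 fold change of -0.05.

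S1pr1 and Flt1 behaved differently from the transcription factors in size and in the library that was highest. S1pr1, the sphingosine-1-phosphate receptor of endothelial cells and astrocytes, was at 117, 115 and 115 CPM in naive mice and at 142, 166 and 157 CPM at 15 min. The naive values were almost the same and all 15 min values were higher (fold change 1.34, log2 0.42, SE 0.06, adjusted p = 0.0160). Flt1, a VEGF receptor, was at 65.6, 48.9 and 58.4 CPM in naive mice and at 75.5, 104 and 76.1 CPM at 15 min, with library 2 highest (fold change 1.48, log2 0.56, SE 0.10, adjusted p = 0.0352).

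Of the other 5 endothelial markers none passed the test. Cldn5 and Tek were higher in every 15 min library than in every naive library, as were 5.62% of all genes tested. The summed level of the 6 endothelial markers, Flt1 among them, was between 131 and 177 CPM in naive mice and between 196 and 261 CPM at 15 min, with a median log2 fold change of 0.43. Library 2 was the highest 15 min library for 5 of the 6, and for 33.1% of all genes tested. This was not particular to endothelium, as library 2 was also highest for 8 of 8 microglia, 4 of 4 mural cell and 6 of 7 astrocyte markers. It was highest for 1 of 7 hippocampal subfield markers and 0 of 5 red cell markers. Cldn5, a tight junction protein of the blood-brain barrier, was at 20.9, 17.3 and 21.1 CPM in naive mice and at 22.1, 48.7 and 37.8 CPM at 15 min (log2 0.87, SE 0.20, adjusted p = 0.195). For Pecam1, an adhesion molecule of endothelial cells, the log2 value was 0.48 (adjusted p = 0.400). The mural cell markers had a median of 0.55, with Rgs5, a pericyte gene, at 0.38 (adjusted p = 0.253). In bulk tissue, a change in the number of cells of a type and a change in RNA per cell cannot be told apart. The part of vessel or astrocyte content in the S1pr1 and Flt1 results was not tested.

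Markers of the principal brain cell types had medians near 0. The neuron, oligodendrocyte and oligodendrocyte precursor lists had medians of 0.04, 0.02 and 0.00, astrocyte and microglia markers had 0.05 and 0.12, and no member was called. Of the 7 astrocyte genes, 2 were higher without overlap, where 5.62% of all genes tested were so. They were the gap junction gene Gja1 (log2 0.23, adjusted p = 0.195) and the water channel gene Aqp4 (log2 0.22, adjusted p = 0.402). Red cell markers had a median of 0.65 and a summed level of 50.1 to 72.7 CPM in naive mice and 68.6 to 132 CPM at 15 min, highest in library 1 for all 5 genes. The neutrophil genes S100a8 and S100a9 were near the detection limit, with 2 to 4 counts per naive library and 6 to 44 at 15 min (log2 2.46 and 2.80, adjusted p = 0.201 and 0.275). Ngp, Camp and Ltf, the other neutrophil markers, were too low to be tested.

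The choroid plexus markers had the lowest median, -3.74. None of the 16 was called, and 13 were lower at an unadjusted p under 0.05. Ttr, the transthyretin gene that dominates this tissue, was at 2080, 582 and 16.9 CPM in naive mice and at 3.63, 13.5 and 16.6 CPM at 15 min. Naive library 3 and the 15 min libraries were alike at the low end. At 1 h the WT libraries were at 2020, 23.4 and 836 CPM, so the spread between WT mice of 1 group was again wide.

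**Figure D3:**
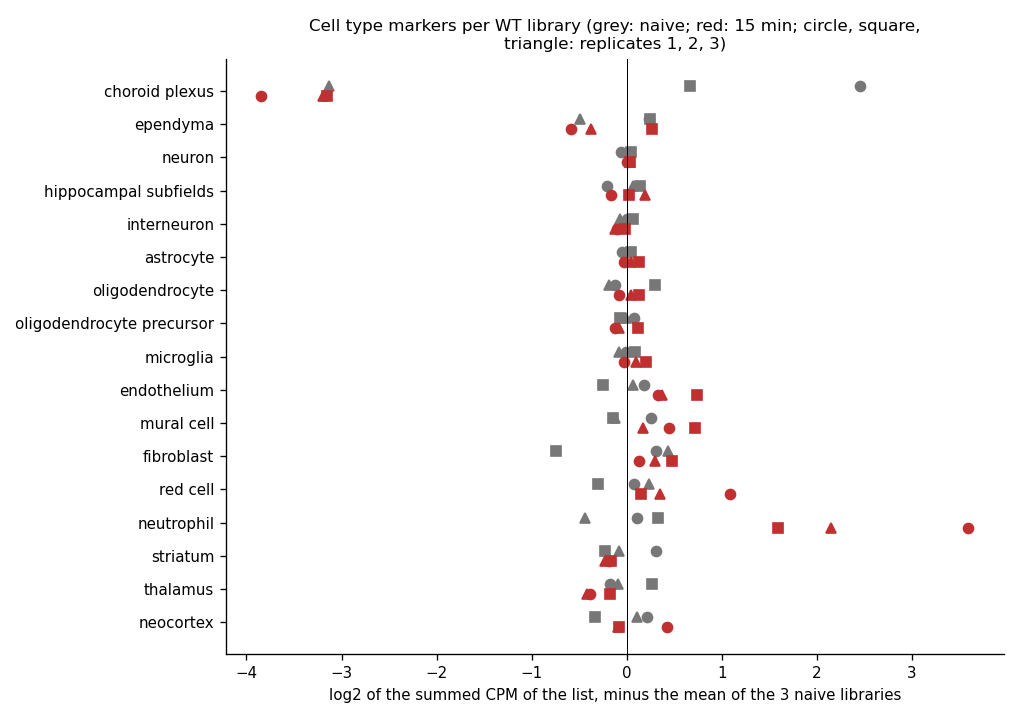
Summed CPM of each cell type marker list in the 6 WT libraries, as log2 minus the mean of the 3 naive libraries (horizontal axis); grey is naive, red is 15 min, and circle, square and triangle are replicates 1, 2 and 3. Choroid plexus markers are high in naive libraries 1 and 2 only, and endothelial markers sum to 196 to 261 CPM at 15 min and to 131 to 177 CPM in naive mice.

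Library 1 of the 15 min group was the highest of its 3 libraries for 7 of the 9 called genes, the exceptions being S1pr1 and Flt1. It was the highest for 29 of the 37 tested transcription factors and regulators of the AP-1, Egr, Nr4a and other early lists, and for 35.8% of all genes tested. Without this library Fos, Junb, Npas4, Ier2, Egr2 and Cyr61 were no longer called, although their 15 min values in libraries 2 and 3, given above, were all above every naive value. The same library was the highest of the 3 for all 5 red cell markers, both tested neutrophil genes, 14 of 16 clock genes and all 4 neocortex markers, whose summed level was 225, 158 and 157 CPM in 15 min libraries 1 to 3 and 194, 133 and 181 CPM in naive libraries 1 to 3. The part of other cells or tissue in these results was not tested.

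Glucocorticoid-responsive genes, which follow the release of stress hormone, had a median of -0.12 with no call among 19. Of the 19, 6 were lower in every 15 min library than in every naive library and 1 was higher. Over all genes tested the shares were 4.88% lower and 5.62% higher. Plin4, a lipid droplet protein, was at 18.8, 23.0 and 6.96 CPM in naive mice and at 5.14, 4.09 and 4.13 CPM at 15 min. The groups did not overlap, as for 4.88% of all genes tested in this direction, and naive library 3 was much nearer to the 15 min values than the other two (log2 -1.86, SE 0.52, adjusted p = 0.323). Hif3a, a hypoxia-inducible factor subunit, was at 18.4, 14.6 and 11.7 CPM against 9.21, 8.01 and 6.47 CPM (log2 -0.92, SE 0.27, adjusted p = 0.394). Sgk1 and Fkbp5, common readouts of the glucocorticoid receptor, had log2 fold changes of -0.46 and -0.17, and Per1 had -0.12.

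Clock, heat shock and inflammatory genes gave no call. Their medians were -0.04 over 16 clock genes, 0.07 over 12 heat shock genes and 0.12 over 8 tested inflammatory genes. The other 7 inflammatory genes, Tnf, Il6 and 5 chemokines, were too low to be tested. Lcn2, an iron-binding acute phase protein, was at 0.916, 0.420 and 0.699 CPM in naive mice and at 0.320, 0.648 and 4.74 CPM at 15 min. A single 15 min library, with 148 counts, was high, and the other two lay within or below the naive range (log2 1.47, SE 0.69, adjusted p = 0.563).

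**Figure D4:**
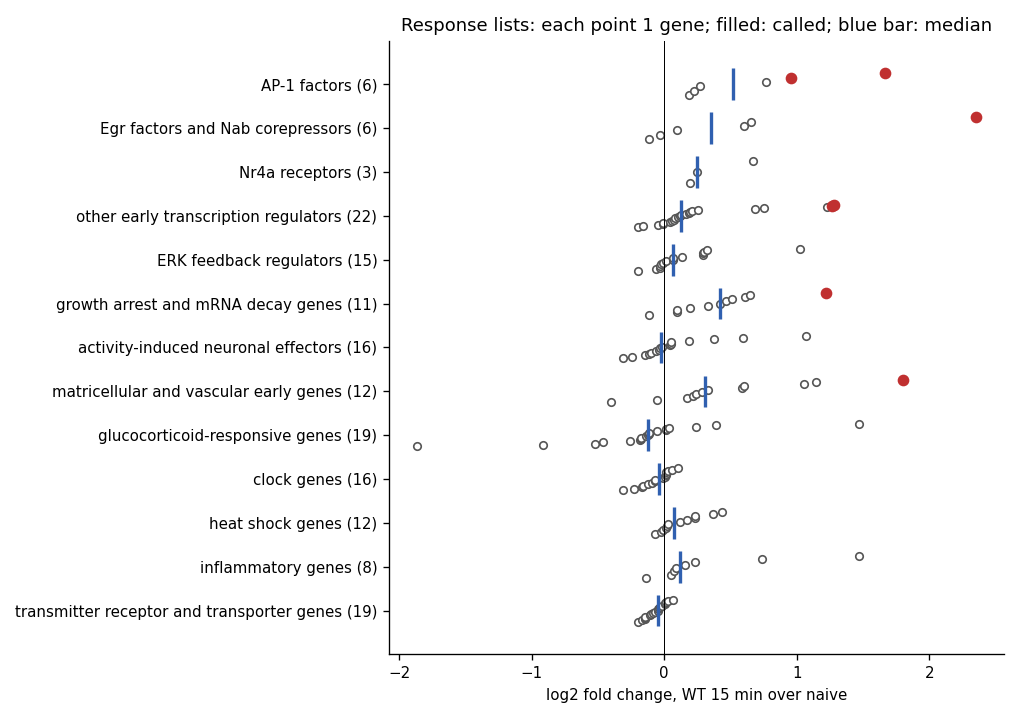
Log2 fold change of WT 15 min over naive (horizontal axis) for each tested gene of 13 response lists, with the number of genes in brackets; filled red points are called genes and blue bars are medians. The called genes lie at the right end of 5 lists, and the medians run from -0.12 for glucocorticoid-responsive genes to 0.52 for AP-1 factors.

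Whether the 9 genes were still at their new level at 1 h was asked by comparing WT mice at 1 h with those at 15 min. This comparison uses the same 15 min libraries. Btg2 and Npas4 fell, and no other gene of the 18349 was called (0.0109% called lower). Btg2 was at 21.3, 18.2 and 17.4 CPM at 1 h, below all 15 min libraries (log2 -0.99, SE 0.14, adjusted p = 0.0107). Npas4 was at 10.9, 10.7 and 8.62 CPM, likewise below all 15 min libraries (log2 -1.39, SE 0.21, adjusted p = 0.0147). Both calls were lost without 1 h library 2, without 1 h library 3, or with the choroid plexus score as a covariate, while 16 genes were called without 15 min library 1 and DESeq2 called 74.

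For the other 7 genes the difference between 1 h and 15 min did not pass. Fos was at 34.6, 36.6 and 25.6 CPM at 1 h (log2 -0.47, adjusted p = 0.549) and Junb at 87.9, 88.5 and 71.8 CPM (log2 -0.22, adjusted p = 0.661). Ier2, at 7.14, 7.50 and 5.05 CPM, and Cyr61, at 9.25, 8.08 and 4.93 CPM, had lower means at 1 h that did not pass (log2 -1.08 and -1.02, adjusted p = 0.110 and 0.215). S1pr1 had a log2 difference of -0.01 between 1 h and 15 min. By 3 h the means were 12.7 CPM for Fos, 46.3 for Junb, 15.1 for Btg2, 10.4 for Npas4 and 117 for S1pr1, next to naive means of 14.1, 49.5, 16.1, 10.9 and 116.

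The same contrast was made between the libraries labelled Tob-KO, whose group means come from other libraries than those of WT but whose spread entered the same fit. The targeted gene Tob1 was at 52.4, 55.1 and 52.7 CPM in the naive libraries labelled Tob-KO and at 66.6, 68.3 and 65.6 CPM at 15 min, above all WT values given above. Gene-level Tob1 RNA was therefore higher, not lower, in the libraries labelled Tob-KO. These counts do not show whether a working transcript or the protein was present. Directions given for Tob-KO are those of the libraries labelled Tob-KO. The part of Tob1 that the reads covered cannot be read from gene-level counts.

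In the libraries labelled Tob-KO, 8 of the 9 WT genes rose, where 0.823% of all genes tested rose. All but Flt1 passed there, and Flt1 had a log2 fold change of 0.28 (SE 0.10, adjusted p = 0.142). Fos was at 6.65, 4.06 and 8.86 CPM in naive and at 51.8, 23.7 and 42.2 CPM at 15 min (log2 2.58, SE 0.30, adjusted p = 0.000229). Btg2 was at 14.4, 14.2 and 13.4 CPM and then at 34.3, 26.2 and 35.7 CPM (log2 1.19, SE 0.14, adjusted p = 0.000229). In both genes the groups did not overlap, as for 8.89% of all genes tested there, and the log2 fold change of Btg2 was almost that of WT.

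The difference of the 15 min response between WT and libraries labelled Tob-KO was tested as an interaction. edgeR called 0 genes, with 871 at an unadjusted p under 0.05 and a lowest adjusted p of 0.349, and DESeq2 also called 0. Among the 9 genes the largest differences, WT minus Tob-KO, were those of Fos (log2 -0.92, SE 0.40), Egr2 (-0.70, SE 0.57) and Npas4 (-0.67, SE 0.30), and no adjusted p was under 0.982. Their Tob-KO means were below those of WT in naive mice (6.52, 0.788 and 6.09 against 14.1, 1.78 and 10.9 CPM). At 15 min the Tob-KO means were also lower (39.2, 6.61 and 23.6 against 44.6, 9.17 and 26.5 CPM). Tob-KO as a whole had 443 calls (2.41%), 151 higher and 292 lower, a count that was 278, 133 and 113 without naive library 1, 2 or 3 and 193, 801 and 44 without 15 min library 1, 2 or 3. Since no interaction passed, the larger count is not shown to be a difference between genotypes. For example, Arc, Dusp1, Egr1 and Egr4 passed in Tob-KO with log2 fold changes of 1.31, 1.23, 0.91 and 0.72, next to 1.07, 1.03, 0.60 and 0.66 in WT. Hif3a and Plin4 fell in Tob-KO, where 1.59% of all genes tested fell, with log2 fold changes of -2.15 and -3.45, next to -0.92 and -1.86 in WT (interaction adjusted p = 0.982 for each).

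**Figure D5:**
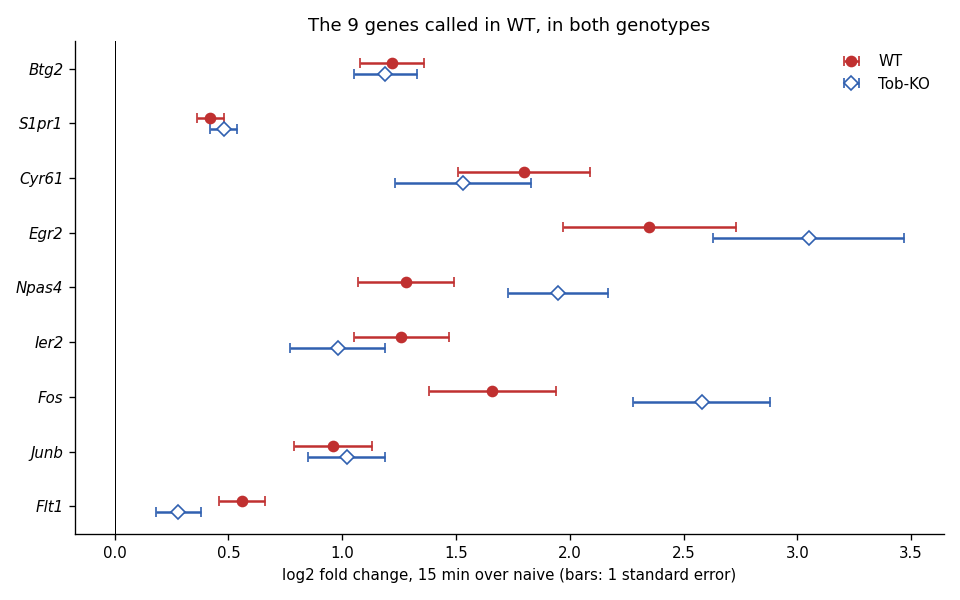
Log2 fold change of 15 min over naive (horizontal axis) with 1 standard error for the 9 genes called in WT, in WT (red circles) and in libraries labelled Tob-KO (open blue diamonds). All 18 values are above 0, and the widest gap is that of Fos, 1.66 in WT and 2.58 in Tob-KO.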

How the data were processed

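Hippocampal RNA from 24 libraries was analysed, of which 6 form the main comparison. Per the study's methods, the authors made directional poly(A) libraries with 8 PCR cycles, sequenced 150-bp paired ends, mapped reads to GRCm38 with STAR 2.6.1d and counted them per gene with HTSeq 0.9.0. They deposited raw counts, whole numbers without normalization, for 47593 genes. The annotation release, strand setting and handling of duplicates are not given in the sources used here. PCR reads carried no molecular identifiers. Of the gene names, 27 were dates, and 94.8% matched exactly 1 gene of the GENCODE annotation of GRCm38, the source of gene coordinates.

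Groups came from the sample labels. Counts were normalized by TMM and fitted with edgeR 4.0.16 (R 4.3.3, glmQLFit) over all 24 libraries with 1 mean per group, a design chosen here; the study's own test of these counts, edgeR's exact test, was run as an alternative. Genes needed 0.2 CPM in 2 of the 6 libraries. Calls used a Benjamini-Hochberg FDR of at most 0.05. Log2 fold changes and their standard errors (SE) come from this fit, and levels are CPM after TMM normalization. The depth of 28985355 to 35233118 counts in the 6 libraries sets the precision, and values of genes under about 1 CPM rest on few counts. Replicate libraries differed by a chi-square per degree of freedom of 9.37 to 18.1, so none was the same library sequenced again. This value cannot show whether they came from separate mice, and the study states that its replicates were biological. The test was checked on simulated data. Alternatives used edgeR's exact test, DESeq2 1.42.0, other normalizations, filters, covariates, a replicate block and fits without single libraries. Promoters were read from the RefSeq table of GRCm38.p6. Figures were drawn with matplotlib 3.10.9 in Python 3.11.15.

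Named genes were the called genes, all AP-1, Egr and Nr4a members and, of every other response list, the 4 with the smallest p-values; other genes, and Tob1, were added after their values were seen. The comparison, the test, the gene lists and the cell type markers were chosen with earlier results of these data known.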

Additional observations from a re-analysis of the deposited data

How the results depend on the processing

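Of 18 alternatives, Btg2 passed in 17, and the other 8 genes in 8 to 13. The direction was the same in all, but the alternatives reuse the libraries in which the genes were called. The count of called genes (9) became 0 with edgeR's quasi-likelihood test on the 6 libraries alone, 46 with its exact test, 40 with DESeq2, 1 without both choroid-rich naive libraries, and 1 to 14 when 1 library was left out. The count with a fold change of at least 2 (6) became 0, 26 and 1 under the quasi-likelihood test on 6 libraries, the exact test and the removal of both choroid-rich naive libraries, and 1 to 7 without 1 library. The cause of these changes was not tested. A filter of 1 CPM in 3 libraries called 11 genes, adding Nkd1 and Ets1, which stood just above the threshold (adjusted p = 0.057 each from edgeR's quasi-likelihood test). The count in Tob-KO (443) became 979 with DESeq2 and 44 to 801 without 1 library. The 1 h against 15 min count (2) became 74 with DESeq2, 0 with the choroid plexus score as a covariate and 0 to 16 without 1 library.

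Replicate numbers recur in each group. Same-numbered naive and 15 min libraries deviated from their group means with correlations of -0.0696, 0.0749 and 0.165. Of the 3 naive libraries, 0 correlated best with its own number. With only 3 libraries per group, these values cannot show whether same-numbered libraries share more than a number. With the replicate block the count of called genes was 8 over 24 libraries and 18 over 6 libraries (8 higher and 10 lower), and the count with a fold change of at least 2 over 6 libraries was 16.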
